A study of Arabidopsis thaliana with 13 samples.

Results

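In 3 of the 13 root tip arrays of the series, transcripts of growing root hairs stood far above their level in the other 10, and these 3 arrays are described here against the rest. They were chosen by the mean log2 value of EXPA7 and EXPA18, a pair of expansin genes of root hair cells, which had to lie above 8, and they were rRBr 6 das replicate 1, rRBr 10 das replicate 1 and Col-0 10 das replicate 1 (called the high arrays). All 10 other arrays lay below 7.5. Because these values chose the arrays, every difference between the high arrays and the others is a description without a test.

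The study followed root tips of Arabidopsis thaliana in which the cell cycle regulator RETINOBLASTOMA RELATED (RBR) was silenced, and asked which transcripts changed with the silencing over time. The rRBr line carries an RNAi construct against RBR under the RCH1 promoter, which acts in the root meristem, in the Col-0 background, and Col-0 wild type seedlings served as its control. Both were raised side by side on vertical plates without further treatment, and tips were cut off under a microscope and collected in bulk. Biotin-labelled RNA was hybridized to ATH1 arrays at 4 das (days after stratification in the labels, counted from sowing in the study's text; 2 rRBr and 2 Col-0 arrays), 6 das (2 rRBr arrays and 1 Col-0 array) and 10 das (3 of each line). The level of RBR itself was not analysed here, and rRBr is 1 line whose construct acts locally.

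A growing root is ordered along its length. Cells divide in the meristem at the tip, where ribosomes and DNA are made at high rates, then elongate, and then differentiate, when epidermal cells push out root hairs, the endodermis lays down its barrier and cell walls are remodelled and cross-linked. Expansins loosen walls, and class III peroxidases act on wall polymers and lignin in the differentiating zone. In a pooled sample of whole tips, more cells of a type and more RNA per cell cannot be told apart.

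EXPA7 had log2 values of 8.75 and 8.68 on the high rRBr arrays of 6 and 10 das and 8.83 on the high Col-0 array. On the other 10 arrays it lay between 4.37 and 7.65, with a median of 5.81. EXPA18 had 9.03, 8.92 and 8.88 on the same 3 arrays, in the same order, against 5.00 to 7.16 on the others (median 5.82). The high arrays of both lines thus had nearly the same level of each gene, and neither gene overlapped with the other arrays. The mean of the 2 genes nearest to the limit on the high side was 8.80, on rRBr 10 das replicate 1. On the other side it was 7.405, on Col-0 4 das replicate 1, which lay well above the remaining arrays (4.685 to 6.265).

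**Figure D1:**
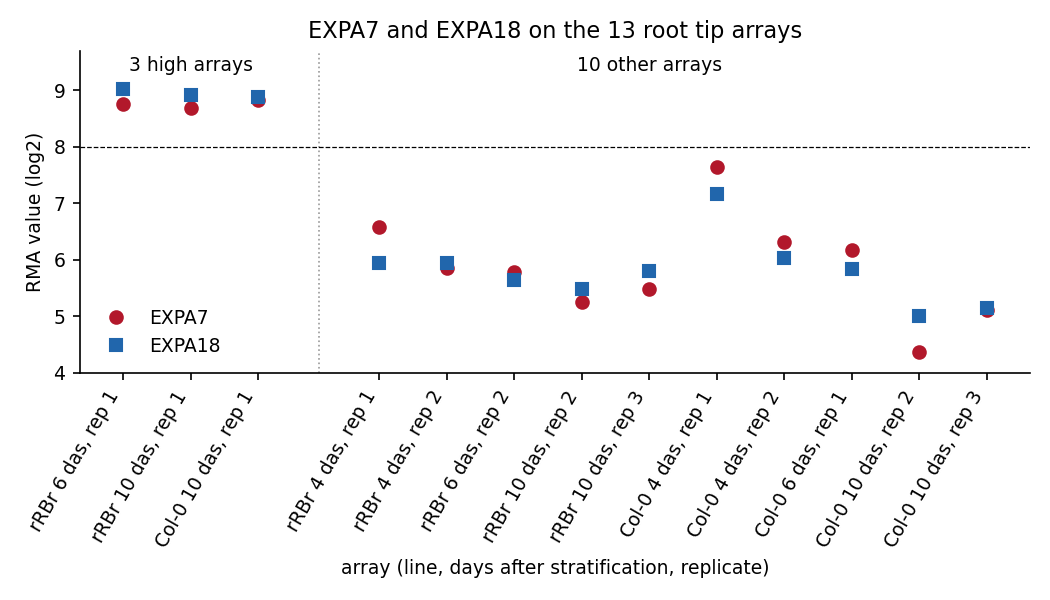
RMA values (log2) of EXPA7 (circles) and EXPA18 (squares) on each of the 13 arrays, with the 3 high arrays left of the dotted line and the 10 others right of it; the dashed line marks the limit of 8. The 3 high arrays sit between 8.68 and 9.03, and the highest other array, Col-0 4 das replicate 1, has 7.65 and 7.16.

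The labels place the high arrays unevenly. All 3 carry replicate number 1, which 6 arrays carry in all, and none of the 7 arrays with another number was high. By age, 2 of the 6 arrays of 10 das and 1 of the 3 of 6 das were high, and none of the 4 of 4 das. By line, 2 of 7 rRBr and 1 of 6 Col-0 arrays were high. The part of replicate number, day and dissection in these differences was not tested.

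The pattern was not limited to a few genes. Over all 22746 probe sets, pairs of high arrays had Pearson correlations of 0.987 to 0.993, although they came from different lines or days, while a high array and another array of its own line and day had 0.974 to 0.980, and a high array and any other array 0.967 to 0.990. Pairs of other arrays of 1 line and day had 0.994 to 0.996. Principal component 1 held 51.9% of the variance and set the high arrays (55.0 and 50.9 in rRBr at 6 and 10 das, 37.7 in Col-0) apart from the others, which ran from -26.8 to 5.6. The upper end of that range was again Col-0 4 das replicate 1. The SD across probe sets of the difference between a high array and another array of its line and day was 0.46 to 0.52, against 0.21 to 0.25 between replicates without a high array.

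Line and day were then held constant by subtracting, for each high array, the mean of the other arrays of its line and day: 1 array for rRBr 6 das, and 2 each for rRBr 10 das and Col-0 10 das. A difference of 1 on the log2 scale is a fold of 2. In all 3 groups, 434 probe sets were higher by at least 1, which is 1.91% of those measured, and 3 were lower by at least 1 (0.0132%). At a limit of 0.5 the numbers were 1039 higher (4.57%) and 256 lower (1.13%). Gains were thus larger than losses. The 434 probe sets had median differences of 1.77 in rRBr 6 das, 2.00 in rRBr 10 das and 1.88 in Col-0 10 das, and the 256 had -0.68, -0.64 and -0.62, while the medians over all probe sets were -0.05, -0.07 and -0.03. Of the 434 probe sets, 204 stand for 1 gene, 10 for several, and 220 are not named here; of the 256, these numbers were 165, 5 and 86. At the limit of 1 the gene just inside was At4g09100 at 1.00 and just outside was RALFL22 at 0.99, and at the limit of -0.5 the same were At5g22840 at -0.50 and At5g65900 at -0.495.

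**Figure D2:**
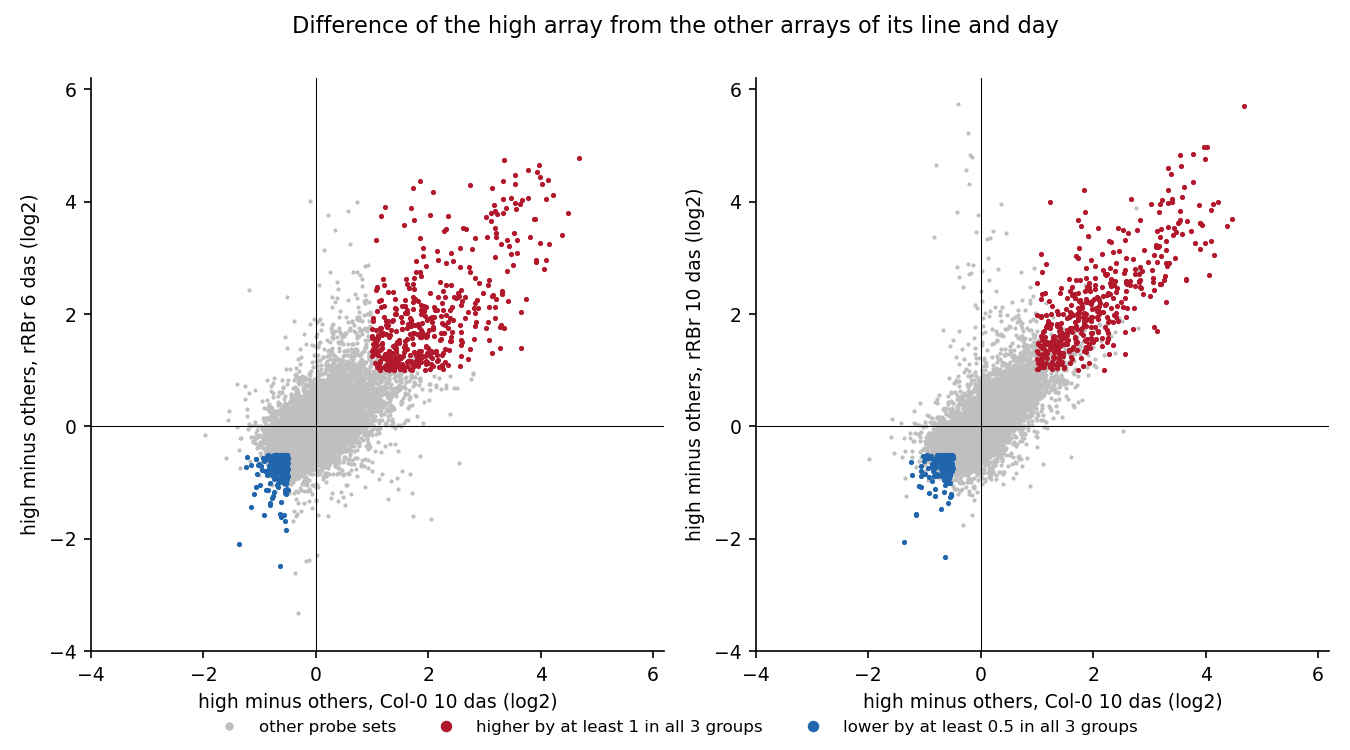
Difference of each high array from the other arrays of its line and day (log2), for 22746 probe sets, with rRBr 6 das (left) or rRBr 10 das (right) on the vertical axis and Col-0 10 das on the horizontal axis. Red points are the 434 probe sets higher by at least 1 in all 3 groups and blue points the 256 lower by at least 0.5; red points reach beyond 4 on both axes, while few blue points pass -2.

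Across probe sets, which are not independent of each other, the differences in rRBr and Col-0 at 10 das had a Pearson correlation of 0.79, those of rRBr 6 das and Col-0 10 das 0.69, and those of the 2 rRBr days, 0.81. No array is shared between these groups, but replicate number is. Of the 434 probe sets, 407 had all 3 high arrays above all 10 others, as had 7.74% of all probe sets, and of the 256, 208 had all 3 below, as had 10.3% of all. The values that chose the arrays enter these counts. On the 10 other arrays the 434 probe sets had a median level of 5.54, against 7.73 on the high arrays, and 40 of them lay below 4.18 there, the lower quartile of all probe sets, so that most were measured well above the dimmest probe sets on the other arrays too. The 256 had a median level of 7.23 on the high arrays and of 7.91 on the others.

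The root hair label was first held against other genes of root hair walls, the list that also holds EXPA7 and EXPA18. Beside those 2, which chose the arrays, 4 genes of the list could be measured by name. All 4 were higher on every high array than on any other array, as were 7.74% of all probe sets. GH9C1 and At4g26010 passed the limit of 1 in each group (204 of 13513 probe sets of 1 gene did, 1.51%). GH9C1, a membrane-bound endoglucanase that acts on cellulose in expanding walls, had values of 9.12 and 9.15 in rRBr and 8.70 in Col-0 on the high arrays and 5.13 to 7.69 (median 5.93) on the others. Its differences of 3.45, 3.64 and 3.53 in rRBr 6 das, rRBr 10 das and Col-0 10 das were nearly equal in the 3 groups. At4g26010 had 9.78, 9.43 and 9.80 on the high arrays and 4.96 to 7.84 (median 6.02) on the others, with differences of 3.80, 3.69 and 4.48.

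The other members differed less. CSLD2, a cellulose synthase-like enzyme needed for normal hair walls, had 9.62, 9.65 and 9.76 on the high arrays against 8.75 to 9.53 on the others, and differences of 0.44, 0.84 and 0.77. XTH26, a xyloglucan endotransglucosylase, had 4.76, 4.22 and 4.36 against 3.84 to 4.00, and stayed among the dimmer probe sets on every array. From the list of tip growth genes only 2 had a probe set, FER, a receptor kinase that regulates hair growth, and SCN1, which keeps hair initiation to 1 site. FER was higher by 0.31, 0.54 and 0.59, and SCN1 by 0.31, 0.47 and 0.39, both without overlap between the high arrays and the others. Of all probe sets, 7.74% had the high arrays above all others. TRY, a small MYB-type regulator of epidermal patterning and the only gene measured from the list of hair regulators, had 5.00, 4.96 and 5.02 against 5.03 to 5.79 on the others. COBL9, PRP3, LRX1, RSL4 and RHD6, further markers of hair cells, and the markers of non-hair cells were not analysed here.

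**Figure D3:**
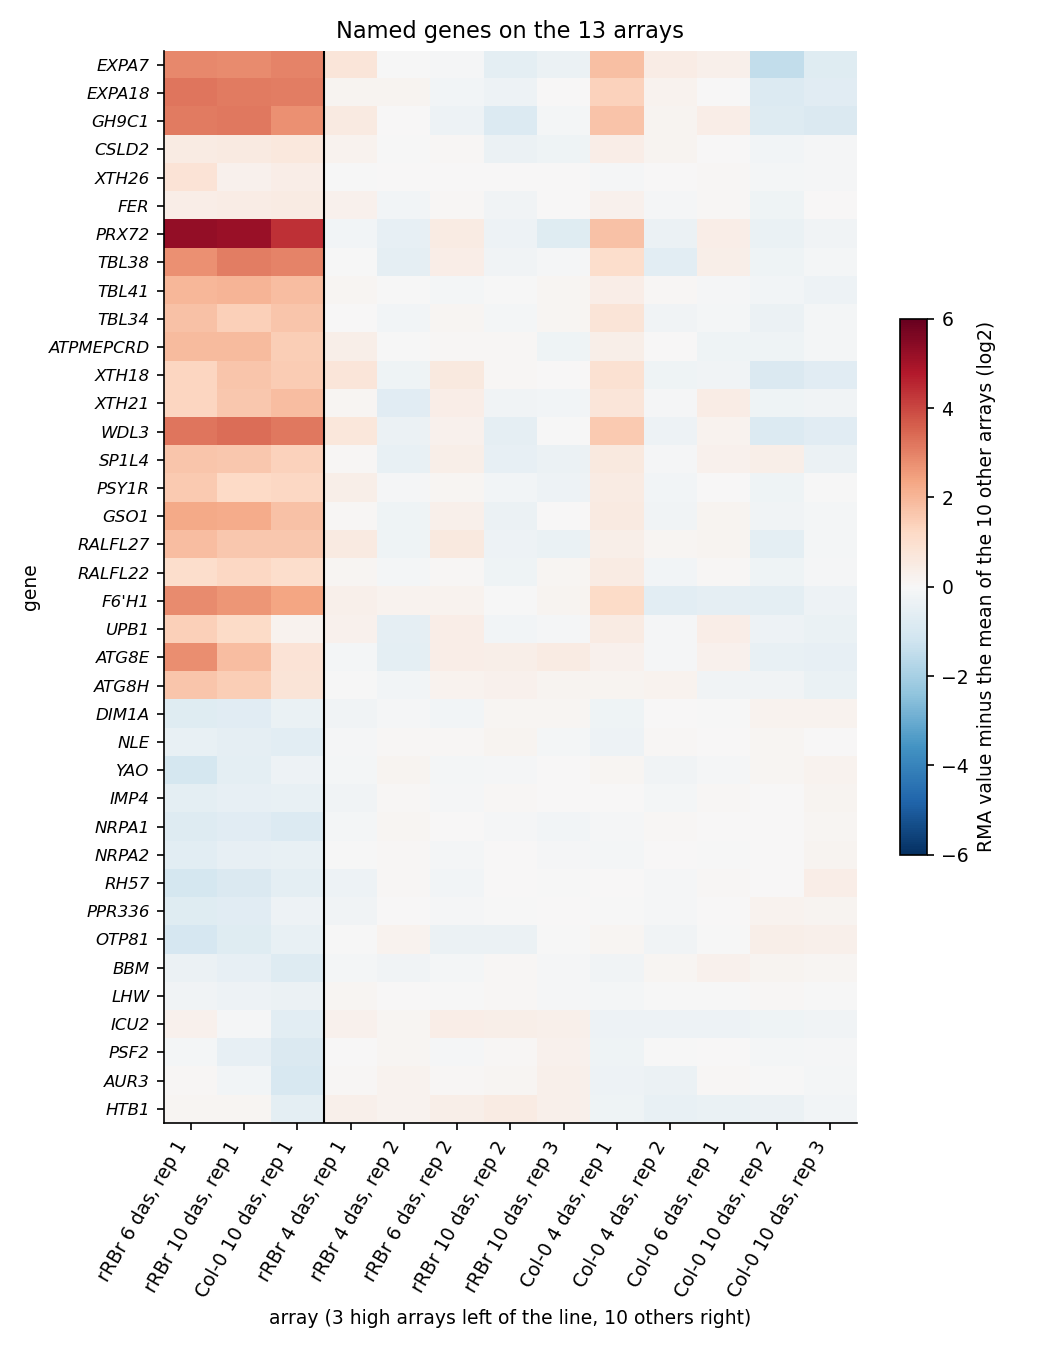
RMA value of each named gene (rows) on each array (columns) minus that gene's mean over the 10 other arrays (log2; red higher, blue lower), with the 3 high arrays left of the black line. Wall, hair and signalling genes from EXPA7 to ATG8H are red to varying degree on the high arrays and part of them also on Col-0 4 das replicate 1, ribosome and RNA genes from DIM1A to OTP81 are blue on the high arrays, and ICU2, PSF2, AUR3 and HTB1 are bluest on the high Col-0 array.

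The largest shared difference of all belonged to PRX72 (At5g66390), a class III peroxidase of lignin formation. It had values of 10.10 and 10.01 on the high rRBr arrays and 9.23 on the high Col-0 array. The others lay between 4.09 and 6.61, with a median of 4.58, a little above the lower quartile of all probe sets. The differences were 4.77, 5.71 and 4.68, and the smallest of them is a 25.7-fold change. The list of peroxidases holds only genes that the tables name as such, and loci without a name were not sorted into families. Its counts therefore do not describe class III peroxidases as a whole, and members outside the list may have been higher too. Of its 4 other members none passed the limit in all 3 groups, but only 1.51% of all probe sets of 1 gene did. At5g64120 came nearest with 2.85, 1.88 and 0.88, and the remaining 3 lay between -0.14 and 0.51.

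Other wall genes followed in families, which were picked after the values had been seen, so that their counts describe and do not support. Of 24 probe sets of the TRICHOME BIREFRINGENCE-LIKE (TBL) family, whose characterised members add acetyl groups to wall polysaccharides, 5 passed the limit of 1. Among all probe sets of 1 gene, 1.51% did. The family's median differences were only 0.05, 0.06 and 0.28. TBL38 was the foremost, with 9.37, 9.66 and 9.58 on the high arrays against 5.96 to 7.66 (median 6.53) on the others. TBL41 had differences of 2.12, 2.00 and 2.1, TBL34 of 1.63, 1.41 and 1.90, TBL30 of 1.07, 1.30 and 1.47, and TBL21 of 1.1, 1.46 and 2.36. The difference was therefore uneven within this family, and 4 of its probe sets were lower in all 3 groups, as were 34.0% of all probe sets. Xyloglucan endotransglucosylases (XTH), which cut and rejoin the tethers between cellulose fibrils, were shifted more broadly. Of 10, 7 were higher in all 3 groups, as were 19.1% of all probe sets, with medians of 0.42, 0.53 and 0.77. XTH21 had 7.70, 8.01 and 8.24 on the high arrays and 5.69 to 7.10 on the others. For XTH18 the values were 10.24, 10.60 and 10.47 against 8.05 to 9.85.

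Among 4 pectin methylesterases measured by name, which remove methyl groups from pectin, ATPMEPCRD (1.82, 1.99 and 1.64) and PMEPCRF (1.58, 1.13 and 1.01) passed the limit, as did 1.51% of all probe sets of 1 gene. Loci without a name were not sorted into this family, so that the count does not describe it as a whole. PME61 and ATPMEPCRB lay between -0.18 and 0.27. IRX15-L, which takes part in making xylan, was higher by 1.56, 1.75 and 1.62. HRGP1, an extensin-type wall glycoprotein, was higher by 2.08, 2.48 and 2.15, on a probe set that its name marks as open to cross-hybridization. In contrast, the 12 expansins other than EXPA7 and EXPA18 had median differences of -0.24, -0.23 and 0.06. None passed the limit of 1, but only 1.51% of all probe sets of 1 gene did, so that this count says little. By their medians, these 12 did not share the gain of EXPA7 and EXPA18, which had chosen the arrays.

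Genes of other differentiated tissues were sparsely measured. GSO1, a receptor kinase that controls the closure of the Casparian strip in the endodermis, was the only gene measured from the endodermal list. It had 8.22 and 8.17 on the high rRBr arrays and 7.71 on the high Col-0 array, against 5.57 to 6.50 (median 5.89) on the others, without overlap. Its differences were 1.96, 2.41 and 1.94. The only xylem gene measured, GUT2, a glucuronoxylan enzyme of secondary walls, had smaller differences of 0.72, 0.28 and 0.27 and overlapped with the other arrays. For the phloem, OPS, a regulator of protophloem formation, had 0.16, 0.06 and -0.06. A transporter of nitrate, NRT2.5, had -0.02, -0.24 and -0.11 at levels near the lower quartile. With 1 gene each, these lists describe single genes and not tissues.

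Further enzymes among the higher genes were picked after their values had been seen. F6'H1 (At3g13610) makes the precursor of the coumarin scopoletin, and had 8.29, 8.10 and 7.82 on the high arrays against 4.81 to 6.60 (median 5.52) on the others. HCT, an enzyme of the path to lignin, was higher by 1.35, 1.14 and 1.08. GT72B1, which adds glucose to phenolic compounds, was higher by 1.68, 2.46 and 2.42.

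Microtubule and signalling genes were also present among the probe sets higher by at least 1. WDL3 (At3g23090), a microtubule-associated protein known from hypocotyl elongation, had 7.95, 8.09 and 7.92 on the high arrays against 3.94 to 6.3 (median 4.60) on the others. SP1L4, of the SPIRAL1 family of microtubule proteins, was higher by 1.31, 2.05 and 1.36, and ATMAP65-6, a protein that associates with microtubules, by 1.05, 1.29 and 1.39. PSY1R is a receptor kinase for which a role in sensing a sulphated peptide that promotes cell expansion has been described. Its differences of 1.45, 1.44 and 1.41 were nearly equal. RALF peptides are secreted signals, some of which are read by FER. RALFL27 was higher by 1.30, 1.95 and 1.98, RALFL22 by 0.99, 1.29 and 1.23 and RALFL32 by 1.72, 1.75 and 0.60, while the family of 11 had medians of 0.03, 0.10 and -0.01.

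A further group concerned regulators at the border of the meristem and turnover of cell contents. UPB1 is a transcription factor that represses peroxidases and sets where cell division ends. It had 10.14 and 9.83 on the high rRBr arrays and 8.89 on the high Col-0 array, against 8.15 to 9.19 on the others, so that only the rRBr arrays stood clear. SIM, an inhibitor of cyclin-dependent kinases that favours endoreduplication, had 0.24, 0.21 and 0.46, and HYH, a light-signalling factor, -0.21, 0.19 and 0.13. Autophagy proteins break down cell contents, and this family was also added after the values had been seen. Of its 11 members, 5 were higher in all 3 groups, as were 19.1% of all probe sets. Its medians were 0.68 in rRBr 6 das, 0.38 in rRBr 10 das and 0.1 in Col-0 10 das. ATG8E had 8.09, 7.15 and 6.10 on the high arrays and 4.70 to 5.78 on the others, and ATG8H had 9.24, 9.07 and 8.35 against 7.17 to 7.86. For both genes the high rRBr arrays were above the high Col-0 array. COR47, a dehydrin, was higher by 1.77, 2.14 and 1.27.

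Most of the 20 largest gains belonged to loci that the tables used here give no name. At5g04960 (4.12, 3.98 and 4.22), At1g30750 (4.43, 4.76 and 3.98), At4g13580 (4.56, 4.84 and 3.78) and At4g33730 (3.97, 3.67 and 3.55) led these, each without overlap, beside 7.74% of all probe sets with the high arrays above all others. Loci without a name beyond the 20 included At5g51890 (3.52, 3.29 and 2.31), At5g15180 (2.95, 3.53 and 2.44), At5g17820 (1.77, 2.60 and 3.27), At5g64100 (2.61, 1.77 and 3.08) and At4g36430 (1.83, 1.57 and 2.26), also without overlap and chosen after their values were seen. The 20 genes together ran from 7.11-fold to 25.7-fold by the smallest of their 3 differences. They included EXPA7, EXPA18, GH9C1, PRX72, At4g26010 and WDL3. Of all 204 named probe sets higher by at least 1, 37 had a symbol other than the locus.

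Losses were smaller and lay in other functions. The only named gene lower by at least 1 in all 3 groups (0.0074% of probe sets of 1 gene) was UGT78D1, which adds rhamnose to flavonols. It had 3.91, 4.54 and 4.27 on the high arrays, but 3.99 to 7.30 on the others, where 3 of the 4 arrays of 4 das were also low, so that the groups overlapped. Several genes of ribosome production were lower by less. NRPA1, the largest subunit of RNA polymerase I, which transcribes ribosomal RNA genes, had 7.59, 7.71 and 7.56 on the high arrays and 8.20 to 8.51 (median 8.39) on the others. Its second subunit NRPA2 had 8.66, 8.77 and 8.84 against 9.17 to 9.44 (median 9.27). Neither gene overlapped. DIM1A, a methyltransferase of ribosomal RNA, had 8.54, 8.60 and 8.89 against 9.0 to 9.50 (median 9.29).

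The list of ribosome biogenesis had 2 genes with a probe set, DIM1A and At5g14520, with median differences of -0.52, -0.62 and -0.52 in rRBr 6 das, rRBr 10 das and Col-0 10 das. On every high array both were below all other arrays, as were 10.3% of all probe sets. A set of 7 such genes put together after the values had been seen had medians of -0.51, -0.53 and -0.50. NLE (At5g52820), which takes part in maturing the large ribosomal subunit, had -0.51, -0.55 and -0.71, YAO, a nucleolar protein, had -0.91, -0.55 and -0.47, and IMP4, of the small subunit processome, had -0.51, -0.53 and -0.54. The RNA helicase RH57 (At3g09720) had 7.03, 7.22 and 7.5 on the high arrays and 7.77 to 8.45 on the others. Over the 12 subunits of nuclear RNA polymerases measured, 9 were lower in all 3 groups, as were 34.0% of all probe sets, with medians of -0.30, -0.25 and -0.55. In the whole table, 1.22% of probe sets of 1 gene were lower by at least 0.5 in each group.

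Some proteins of organelle gene expression were lower as well, again picked after the values had been seen. PPR336, a pentatricopeptide repeat protein of mitochondrial ribosomes, had 9.43, 9.50 and 9.84 on the high arrays against 9.93 to 10.38 on the others. OTP81, which takes part in RNA editing in plastids, had -0.65, -0.56 and -0.77, and the peptide deformylase PDF1B, which trims new proteins of organelles, had -0.73, -0.63 and -0.75. The 10 numbered proteins of these families had medians of -0.24, -0.22 and -0.20. Of them, 8 were lower in all 3 groups, as were 34.0% of all probe sets. By at least 0.5 in each group, 2 were lower, as were 1.22% of all probe sets of 1 gene. Other named losses were those of MAC3A, of a spliceosome-associated complex (-0.60, -0.63 and -0.60), RBL (REBELOTE; -0.92, -0.56 and -0.55) and PCN (POPCORN; -0.57, -0.60 and -0.60). ASPGB1, an asparaginase that releases ammonium from asparagine, had -1.35, -0.95 and -0.61. The 20 largest losses ran from 1.57-fold to 2.57-fold by the smallest difference.

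**Figure D4:**
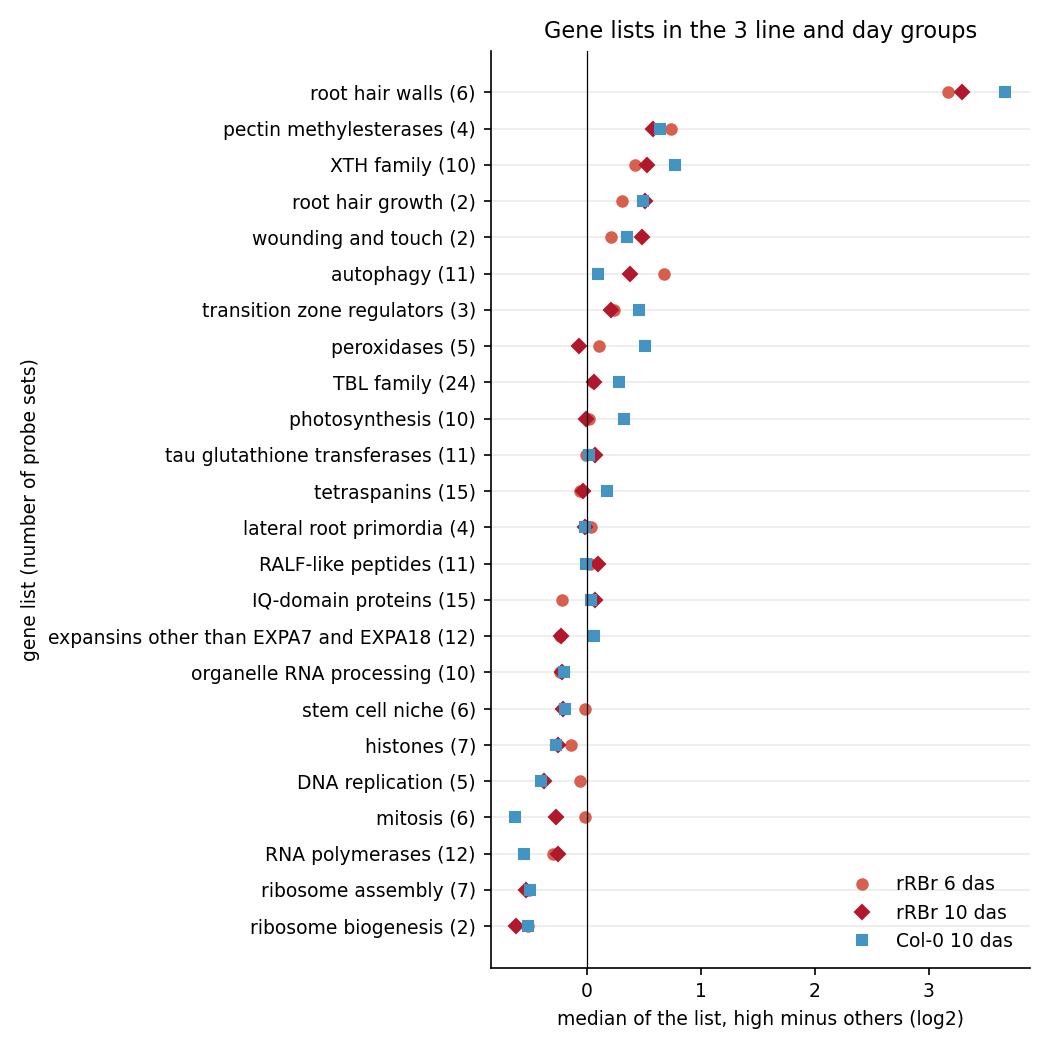
Median difference between the high array and the other arrays of its line and day (log2) over the probe sets of each gene list with at least 2 (number in brackets), for rRBr 6 das (circles), rRBr 10 das (diamonds) and Col-0 10 das (squares). Root hair walls, which include EXPA7 and EXPA18 that chose the arrays, lie above 3 and the ribosome lists near -0.5 in all 3 groups, while mitosis and DNA replication are near 0 in rRBr 6 das and below it in both 10 das groups.

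For genes of cell division the size of the difference varied among the 3 groups. Over 6 genes of mitosis the medians were -0.02 in rRBr 6 das, -0.27 in rRBr 10 das and -0.63 in Col-0 10 das, over 5 genes of DNA replication they were -0.06, -0.38 and -0.40, and over 7 histones -0.14, -0.25 and -0.27. Lower in all 3 groups were 3 of the 6, 3 of the 5 and 6 of the 7, beside the 34.0% of all probe sets. No member of these lists was lower by 0.5 in each group, but only 1.22% of all probe sets of 1 gene were, so that this count says little. AUR3, an Aurora kinase of mitosis, had 7.60 and 7.35 on the high rRBr arrays and 6.58 on the high Col-0 array, against 7.18 to 7.84 on the others, so that only the Col-0 array lay outside their range. PSF2, of the replicative helicase, had 7.63, 7.26 and 6.87 against 7.48 to 8.01. Among the high arrays the one of rRBr 6 das thus had the highest level of both genes, within the range of the other arrays. Whether the lines or days differ in this was not tested.

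In the list of the stem cell niche, 3 of 6 genes were below all other arrays on every high array, as were 10.3% of all probe sets. BBM, an AP2-type regulator of the meristem, had 5.76, 5.64 and 5.34 against 5.92 to 6.37 on the others. LHW, a transcription factor of the vascular initials, had 8.33, 8.24 and 8.20 against 8.42 to 8.65. CR4, a receptor kinase (ACR4) of columella stem cells, had 5.02, 4.85 and 4.74 against 5.03 to 5.38. JKD and CLE40, which act in patterning of the ground tissue and of the columella, lay within 0.26 of 0 in all groups. The remaining gene of the list, AGL42, went the other way and was higher by 0.14, 0.55 and 0.33. WOX5, PLT1 and PLT2 were not analysed here.

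The other arrays were not all alike in the shared probe sets. The mean over the 434 was 7.98 and 7.85 on the high rRBr arrays and 7.65 on the high Col-0 array. On the others it ran from 5.48 to 6.63, with the highest value on Col-0 4 das replicate 1 and the next, 6.09, on rRBr 4 das replicate 1. The 4 das arrays took no part in choosing the probe sets. At that day, replicate 1 was above replicate 2 in 362 of the 434 probe sets in rRBr (83.4%, median difference 0.29) and in 414 in Col-0 (95.4%, median 0.62). Of all probe sets it was above in 47.2% in rRBr (median 0.00) and 44.1% in Col-0 (median -0.01). For the 256 lower probe sets the same comparison gave 8.59% above in rRBr (median -0.24) but 58.2% in Col-0 (median 0.03). Gains of the same probe sets thus appeared in weaker form between the replicates of both lines at 4 das, and losses in rRBr only; the difference between lines was not tested.

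**Figure D5:**
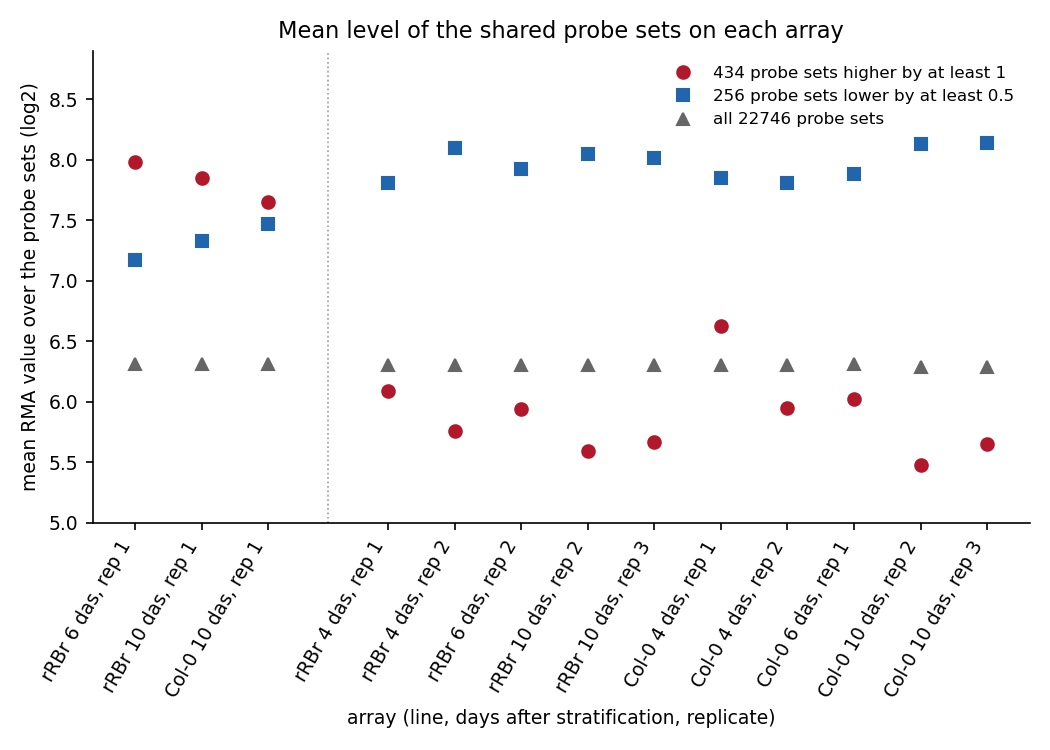
Mean RMA value (log2) on each array over the 434 probe sets higher by at least 1 (circles), the 256 lower by at least 0.5 (squares) and all 22746 (triangles), with the 3 high arrays left of the dotted line. Circles lie at 7.65 to 7.98 on the high arrays and at 5.48 to 6.63 on the others, squares at 7.17 to 7.47 against 7.81 to 8.14, and triangles do not move.

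To see whether the comparison of the lines was touched, rRBr and Col-0 were compared over all days with limma. With limits of 0.01 on the adjusted p and of 1.4 on the fold, it called 95 of 22746 probe sets (0.418%), 78 higher and 17 lower in rRBr. None of the 434 higher probe sets and none of the 256 lower ones was called in this fit, and at an unadjusted p under 0.05 there were 1 (0.23%) and 15 (5.86%), against 10.2% of all probe sets. Both sets were chosen for large differences within line and day, which also widen their spread in this fit, so that these counts say little about the lines. With 2 of 7 rRBr arrays and 1 of 6 Col-0 arrays high, the 434 probe sets had a median of 0.20 higher in rRBr with a median SE of 0.46, against -0.01 and 0.08 for all probe sets. EXPA7, for example, was 0.22 higher in rRBr with an adjusted p of 0.956. When the 3 high arrays were left out, the median of the 434 turned to -0.11 and its SE to 0.22. The fit then called 74 probe sets (0.325%), 0 of the 434 and 1 of the 256, which was higher in rRBr. With replicate number as a block, 0 of either set were called, beside 0.4% of all probe sets.

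Genes of DNA replication and histones were among those called. Of the 5 replication genes 3 were called higher in rRBr and of the 7 histones 2, beside 0.343% of all probe sets (0.255% without the 3 high arrays, where the same 5 were called). ICU2, the catalytic subunit of DNA polymerase alpha, was higher by 0.58 ± 0.08 (SE; adjusted p = 0.00336), ATIM, of the fork protection complex, by 0.64 ± 0.07 (adjusted p = 0.000226) and PRL, the MCM7 subunit of the replicative helicase, by 0.62 ± 0.08 (adjusted p = 0.00169) in limma's test. The histone H2B genes HTB1 and HTB2 were higher by 0.64 ± 0.07 (adjusted p = 0.000599) and 0.73 ± 0.11 (adjusted p = 0.00458). Without the 3 high arrays the differences were 0.57 ± 0.05, 0.61 ± 0.06, 0.56 ± 0.05, 0.65 ± 0.07 and 0.64 ± 0.09 (SE, limma), in the same order. On the high arrays themselves HTB1 had 10.96 and 10.97 in rRBr and 10.23 in Col-0, and on the others 11.06 to 11.30 in rRBr and 10.38 to 10.67 in Col-0. The line difference of this histone was therefore seen on both kinds of array.

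The same held for the called probe sets as a whole, as a description, since they were chosen on these values. At 10 das the 78 probe sets called higher had a median of 0.78 higher in rRBr between the high arrays of the lines and of 0.77 between the others, and all 78 were higher in rRBr in each. Their median difference between a high array and the others of its line and day was -0.01 in rRBr 6 das, -0.23 in rRBr 10 das and -0.21 in Col-0 10 das.

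Age was compared in the same way. Since 2 of the 6 arrays of 10 das were high and none of 4 das, 10 das was compared with 4 das within each line in a fit of 6 groups by line and day (limma, adjusted p under 0.05). In rRBr 17 probe sets were called (0.0747%), all higher at 10 das, and in Col-0 22 (0.0967%), 12 higher and 10 lower. None of the 434 or the 256 was called in either line, and at an unadjusted p under 0.05 there were 2 (0.461%) and 8 (3.12%) in rRBr, against 5.26% of all probe sets, and 2 (0.461%) and 6 (2.34%) in Col-0, against 4.61%. The same limit holds for these counts. The median SE of this age difference was 0.82 for the 434 and 0.13 for all probe sets. Without the 3 high arrays it was 0.25 and 0.11, and more probe sets were called, 48 in rRBr (42 higher and 6 lower; 0.211%) and 70 in Col-0 (18 higher and 52 lower; 0.308%).

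Without the high arrays the 434 had a median age difference of -0.25 in rRBr and -0.61 in Col-0, against 0.41 and 0.02 with them. Since these probe sets were chosen for lower values on the other arrays of 10 das, their direction without the high arrays is in part fixed by that choice and is given without a test. With replicate number as a block, 36 probe sets were called in rRBr (0.158%) and 38 in Col-0 (0.167%), and none of the 434 in either line. Of the 256, 2 were called in rRBr and 1 in Col-0 in that fit, among them At3g49190, lower at 10 das in rRBr (-1.51; adjusted p = 0.049, limma).

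AGL42, a MADS-box gene whose activity marks the quiescent centre, was the only gene of the lists called with age in both lines with all arrays in the fit. It was higher at 10 than at 4 das by 2.28 ± 0.23 in rRBr (adjusted p = 0.0153) and by 2.9 ± 0.23 in Col-0 (adjusted p = 0.00246, limma). Leaving out the high arrays gave 2.1 ± 0.20 and 2.79 ± 0.20, both called again in limma's test. In that fit ATG8B, an autophagy gene, was called too, higher at 10 das by 0.89 ± 0.11 in rRBr (adjusted p = 0.0334) and by 0.93 ± 0.11 in Col-0 (adjusted p = 0.0233, limma). On the high arrays AGL42 had 6.03 in rRBr at 6 das and 6.76 at 10 das, and 7.16 in Col-0, within 0.55 of the mean of the other arrays of their line and day.

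Genes of tissues that a root tip sample should lack, and of stress, were set beside these differences. The 10 photosynthesis genes had medians of 0.02, -0.01 and 0.33 in rRBr 6 das, rRBr 10 das and Col-0 10 das, and their summed level (log2 of the sum) was 8.39 to 8.64 on the high arrays and 8.03 to 8.43 on the others, 1 of 10 being above all others. The 4 genes of lateral root primordia had 0.04, -0.02 and -0.02, and their summed level was 6.26 to 6.39 against 6.32 to 6.53. PYK10, a beta-glucosidase of root ER bodies and the only gene measured from the root cap list, had 13.04, 12.91 and 12.95 on the high arrays against 12.68 to 13.23. Of the list of wounding and touch, WRKY53, a factor of senescence and defence, had 0.06, 0.41 and 0.96, and STZ, a zinc-finger factor of abiotic stress, had 0.36, 0.56 and -0.26. ROF2 (At5g48570), a heat-induced immunophilin and the only measured gene of the heat shock list, had 9.22 and 11.00 on the high rRBr arrays and 8.52 on the high Col-0 array, against 6.91 to 10.00 on the others. The part of these genes in the shared differences was not tested.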

How the data were processed

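RNA of dissected root tips was measured on 13 ATH1 arrays. Per the labels and the methods, the authors made the deposited log2 values by RMA, which corrects background, normalizes by quantiles and sums up each probe set, in the affy package, whose version is not given in the sources used here. Replicates were not pooled. Of 22810 probe sets, 64 controls were left out. A table of the platform assigned 1 gene to 13513 probe sets, several to 503 and none to 8730, and 13436 of the first matched RefSeq (TAIR10.1), which gave symbols. Names in the text follow these tables.

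Values were used as deposited. limma 3.58.1 in R 4.3.3 (lmFit, eBayes, Benjamini-Hochberg over 22746 probe sets) compared rRBr with Col-0 as 2 groups, and 10 with 4 das in 6 groups that share 1 estimate of the spread. Tested on simulated data, the line fit recovered 97.0% of probe sets changed 2-fold, and the age fit 71.6% in Col-0 and 73.1% in rRBr. The simulated noise was independent between arrays and held no difference shared by the high arrays, so that these rates may not hold for the series. Differences within line and day were described without a test. Alternatives were replicate number as a block, day as a factor, arrays left out, repeated quantile normalization, centring, other limits and a filter on low values.

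The arrays, members and gene lists were chosen with earlier results of these data known. Of 23 lists, 19 had a probe set of 1 gene, and 12 further families were added after values were seen. Genes named are list members, the 20 largest gains and losses by the smallest of the 3 differences, moved genes called in a comparison, and named members of the moved probe sets, the last chosen after their values were seen. The high arrays were named from EXPA7 and EXPA18. Deviations from the group means ran together in rRBr and Col-0 arrays of 1 replicate number. The r was 0.18 at 4 das, where 2 arrays a line give 1 value, and 0.79, 0.60 and 0.63 at 10 das. Replicates 2 and 3 of the 2 lines also ran together at 10 das (0.56 and 0.41), and pairs of replicate 1 with another number had -0.72 to -0.60. With replicate 1 high in both lines at 10 das, these values cannot show that the numbers pair the samples. The numbers were taken as pairs only in the fits with a block. The labels say that both lines were sown together and that this was repeated. The number of arrays limits the precision.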

Additional observations from a re-analysis of the deposited data

Results flagged for a closer look

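Means of 27 measures (EXPA7 and EXPA18, the higher and the lower probe sets, and each list with at least 2 probe sets) were looked at within each line for an array far from the rest, in 54 groups, of which chance flags about 1 in 20. 6 times an array stood apart by their gap to the nearest array relative to the range, all of them high arrays, 5 times the high Col-0 array. The mean of the mitosis list was 6.86 on Col-0 10 das replicate 1, against 7.37 to 7.51 on the other 5 Col-0 arrays. For DNA replication it was 7.83 on rRBr 10 das replicate 1, against 8.05 to 8.21 on the other rRBr arrays, and 7.24 on Col-0 10 das replicate 1, against 7.62 to 7.73 on the other Col-0 arrays. The histone list had 8.47 on Col-0 10 das replicate 1, against 8.72 to 8.74. On the same array pectin methylesterases had 5.14, against 4.31 to 4.58, and tetraspanins, a family of membrane proteins, had 5.91, against 5.61 to 5.69. Neither EXPA7 with EXPA18 nor the 434 higher probe sets gave an isolated array in rRBr or in Col-0. In rRBr 2 arrays were high together.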

How the results depend on the processing

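None of the 434 higher probe sets was called between rRBr and Col-0 in any fit run, nor any of the 3 lower by at least 1, and of the 256 lower by at least 0.5 only 1 was, without the 3 high arrays. These sets were chosen for large differences within line and day, so that these counts say little about the lines. Of all probe sets, 0.418% were called with all arrays in the fit. The 95 calls between the lines became 74 to 99 under other settings (91 with the replicate block; centring, at 77, moved the split to 59 higher and 18 lower) and 52 to 104 with 1 array left out. They moved by over 1.5 times without 1 of 4 Col-0 arrays (52 for 6 das replicate 1, 60 for 10 das replicate 2, 61 for 10 das replicate 3 and 61 for 4 das replicate 1) or without replicate 2 of rRBr at 6 das (60) or 10 das (62). The age calls moved most. In rRBr the 17 became 36 with the replicate block, 48 without the high arrays, 10 among probe sets with a mean of at least 5, and 0 to 17 with 1 array left out (0 without either rRBr 4 das array, 3 without either Col-0 4 das array, 4 to 7 without any 1 of the rRBr 10 das arrays, and 7 and 5 without Col-0 10 das replicates 2 and 3). In Col-0 the 22 became 38 with the replicate block, 70 without the high arrays and 3 to 23 with 1 array left out (3 without Col-0 4 das replicate 2, 8 to 11 without any 1 of the Col-0 10 das arrays, and 9 to 12 without either rRBr 4 das array, either rRBr 6 das array or rRBr 10 das replicate 2). The 434 became 1039 at a limit of 0.5 and 225 at 1.5, and lay between 343 and 608 otherwise (420 to 608 with 1 array left out). The 3 became 256 at 0.5, 0 at 1.5, 7 without the 6 das arrays and 1 to 19 with 1 array left out (19 without the high Col-0 array, 7 without either rRBr 6 das array, 1 without rRBr 10 das replicate 2). The 256 became 279 and 345 under renewed quantile normalization and centring, alternatives chosen after seeing the data, and 229 to 577 with 1 array left out (577, 540 and 456 without the high arrays of Col-0 10 das, rRBr 6 das and rRBr 10 das, and 540 without rRBr 6 das replicate 2). Leaving out a high array, or rRBr 6 das replicate 2, removes its group from the differences. Of 95 list medians under another setting, 77 moved by no more than the spread of the 3 groups and 11 changed sign, among them lateral root primordia (-0.02 when centred). Arrays give no depth; their number and the signal over background limit the precision, and differences of dim probe sets such as those of XTH26 and NRT2.5 may be understated.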

Other observations

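Some differences of the high arrays were seen in 1 line only, and were looked for after the values had been seen. In rRBr 10 das, 37 probe sets were higher by at least 2 on the high array while their difference in Col-0 10 das was at most 0.5, and 1 probe set showed the reverse. The largest named among the 37 was At5g37670, with 8.64 on rRBr 10 das replicate 1, 3.66 on rRBr 6 das replicate 1, 3.47 on Col-0 10 das replicate 1 and 3.65 to 5.09 on the others. At1g53540 had 9.58, 4.44 and 4.70 on the same arrays and 4.40 to 6.23 on the others. At1g54050 had 10.82, 6.89 and 6.50, against 6.60 to 9.17. These loci were thus high on 1 high array of 3, the one on which ROF2 was also highest, at 11.00. At4g23670 was high on both high rRBr arrays (7.54 at 6 das and 7.18 at 10 das) and had 3.97 on the high Col-0 array and 3.49 to 4.45 on the others. At5g40590 was the probe set with the reverse pattern, at 4.15 and 4.27 on the high rRBr arrays and 6.70 on the high Col-0 array, against 3.86 to 4.80 on the others.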
